A study of Mus musculus with 8 samples.

Results

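The 7 GABA receptor genes described here are Gabbr1, Gabbr2, Gabra2, Gabra4, Gabra5, Gabrb2 and Gabrd, out of 34614 protein-coding and long noncoding RNA genes in the RefSeq table of assembly GRCm38.p6. They were chosen by name, and their CpG cytosines were taken from the gene span and 5 kb either side (coordinates are of mm10, counted from 1). The assay was reduced representation bisulfite sequencing, which reads CpG-rich restriction fragments after unmethylated cytosines have been converted. The DNA came from dissected brain tissue of male C57 BL/6 mice, labelled dDG DGC. There were 4 mice with cocaine self-administration and 4 saline mice of the same experiment, each with 1 library. The sources used here give no drug dose, session number or age. Of 1510385 CpG cytosines with at least 10 reads in all 8 libraries, 809 belong to these genes, at 663 CpGs.

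GABA is the main inhibitory transmitter of the adult brain. GABA-A receptors are chloride channels built from several subunits. The delta subunit, encoded by Gabrd, pairs with the alpha subunit encoded by Gabra4 outside synapses of granule cells and carries a steady inhibition. The product of Gabra2 sits at synapses, that of Gabra5 is abundant in hippocampus, and Gabrb2 encodes a beta subunit that shares in the binding site for GABA. GABA-B receptors act more slowly through G proteins. They join the product of Gabbr1, which binds GABA, with that of Gabbr2, which couples to the G protein. CpG-dense gene starts usually lack methylation in mammals, whereas CpGs inside genes are often methylated.

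A methylation level is the share of reads that kept the cytosine, over all cells of the dissected layer, so a change in cell mix and a change within cells cannot be told apart. Each library listed 1844706 to 2236384 cytosines, with a median of 34 to 66 reads each, and the members' cytosines had medians of 35 to 71 reads per library. Saline 1 stood apart. At cytosines of 20% to 80% with 30 to 40 reads, 14.3% of its values lay at exactly 0% or 100%; the other 7 libraries had 0.368% to 2.87%. At the members' 191 cytosines of that level, the share was 9.42% in saline 1 and 0% to 3.66% in the others. The mean level over all common cytosines was 36.5% to 38.2% in cocaine mice and 37.9% to 38.3% in saline mice. Methylation does not measure expression, and the labelled cell type was not checked. Levels were under 5% at 4 of 7 covered ends of granule cell marker genes and 4 of 7 of interneuron markers. The same held for 5 of 8 ends of CA pyramidal, 2 of 4 of astrocyte and 5 of 8 of oligodendrocyte markers. For microglia and endothelial markers the counts were 1 of 1 and 3 of 5. These counts do not tell the cell types apart. The labels give no batch.

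The starts of Gabra2, Gabbr2 and Gabbr1 are shown because the libraries read CpGs right at them and the levels below rest on these letters. Each line holds the 250 bases before the start listed by RefSeq (GRCm38.p6), 5′ to 3′ on the gene's strand, with the CpGs measured in all 8 libraries in capitals. Gabra2 lies at chr5:71095850-71096099 (minus strand), Gabbr2 at chr4:46991715-46991964 (minus strand) and Gabbr1 at chr17:37045716-37045965 (plus strand).
Gabra2: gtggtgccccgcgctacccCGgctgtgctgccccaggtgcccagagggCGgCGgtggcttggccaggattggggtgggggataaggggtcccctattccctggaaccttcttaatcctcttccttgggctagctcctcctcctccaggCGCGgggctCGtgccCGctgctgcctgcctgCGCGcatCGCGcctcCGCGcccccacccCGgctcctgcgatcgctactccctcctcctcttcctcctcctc
Gabbr2: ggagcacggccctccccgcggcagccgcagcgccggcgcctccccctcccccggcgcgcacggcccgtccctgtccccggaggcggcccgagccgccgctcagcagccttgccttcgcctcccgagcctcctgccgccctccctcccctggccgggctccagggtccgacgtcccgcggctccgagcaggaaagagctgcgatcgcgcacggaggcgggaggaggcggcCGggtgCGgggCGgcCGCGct
Gabbr1: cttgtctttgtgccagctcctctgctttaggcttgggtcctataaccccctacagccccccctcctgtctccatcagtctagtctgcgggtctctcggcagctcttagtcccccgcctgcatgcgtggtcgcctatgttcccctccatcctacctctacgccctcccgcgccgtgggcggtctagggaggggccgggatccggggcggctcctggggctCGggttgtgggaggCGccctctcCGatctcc

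The Gabra2 window holds 18 CpGs, of which 14 were measured, the Gabbr2 window 37 with 5 measured, and the Gabbr1 window 16 with 3 measured. The median over 32817 such windows of mouse genes was 6 CpGs. At least as many as in Gabbr2 are found in 2.21% of them, as in Gabra2 in 21.7% and as in Gabbr1 in 25.4%. The letters GGGCGG, on either strand and with overlaps allowed, occur 1 time in the Gabra2 window and 2 times each in those of Gabbr2 and Gabbr1, and in 32.7% of all windows. TATAAA on either strand, found in 12.4% of all windows, occurs in none of these 3. RefSeq starts were matched for 6 of the 7 members, Gabrd not among them.

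At the 14 measured CpGs before the Gabra2 start, levels were 0.0831%, 0.0981%, 0.131% and 0.103% in cocaine 1, 2, 3 and 4, and 0%, 0.196%, 0% and 0.324% in saline 1, 2, 3 and 4. These rest on 766 to 1581 reads per mouse, and the groups overlap. The 5 measured CpGs before the Gabbr2 start read 0% in every mouse but saline 3, at 0.541% of 370 reads. Those before the Gabbr1 start read 0% in all 8 mice, on 99 to 240 reads each.

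The listed starts of 6 members were nearly free of methylation in both groups. Cytosines over 5 kb from them, most of them in Gabbr2, averaged about 50% in both. Of 303 cytosines within 1 kb of a listed start in 6 members, 299 had a pooled level under 5%. Their mean was 0.909% ± 0.569 in cocaine and 1.23% ± 0.621 in saline mice (SD, n = 4 each). From 1 to 5 kb, 61 cytosines averaged 0.949% ± 0.633 in cocaine and 0.836% ± 0.705 in saline mice. All of these lie in Gabbr1 (26) and Gabbr2 (35). Beyond 5 kb, 416 cytosines averaged 49.4% ± 1.62 in cocaine and 50.4% ± 1.76 in saline mice. Of these 416, 68 had a pooled level under 5%, 45 of them in Gabra5. The distance classes hold unlike sets of genes, so they differ in more than distance. In each distance class the groups overlapped.

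A run is a stretch of at least 3 CpGs whose measured cytosines lie no more than 100 bp apart. The members hold 72 runs with 717 of their 809 cytosines. Of these runs, 18 had a pooled level under 5%, 6 lay from 5% to 20%, 30 from 20% to 80% and 18 above 80%. Low runs held more CpGs, with a median of 14.5 against 4 in the other runs, and were longer, with a median of 232 bp against 100 bp. Gabbr2 holds 54 of the 72 runs, Gabbr1 6, Gabra5 4, Gabra4 and Gabrd 3 each, and Gabra2 and Gabrb2 1 each. A summary over members is therefore mostly a summary of Gabbr2. The 54 runs with a pooled level from 5% to 95% were tested, 49 of them in Gabbr2, 3 in Gabrd and 1 each in Gabbr1 and Gabra4. Runs of Gabra2, Gabra5 and Gabrb2 were all too low for the test and are described by their levels.

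The start of Gabbr1, on chromosome 17 (gene 37045966 to 37074305), was read in 48 cytosines within 1 kb. Levels were 0.356%, 4.53%, 0.212% and 0.161% in cocaine 1 to 4 and 0%, 0.156%, 0.170% and 0.576% in saline 1 to 4. Cocaine 2 lies above the other 7 mice, which are all under 1%. Its excess came from the run at 37046555 to 37046791, of 27 CpGs, which read 6.98% in cocaine 2 and 0% to 0.840% in the others. The run at 37046350 to 37046428 had 0 methylated of 3188 reads, summed over its 8 cytosines and all mice. Counted as independent, these would allow a level of up to 0.0941%. One read can count at several of these cytosines, so the limit is looser than that. A run of 17 CpGs inside the gene, 37050768 to 37051051, was also low, with a range of 0.120% to 2.39% over cocaine mice and of 0.0783% to 3.55% over saline mice. Gabbr1 makes a long and a short receptor protein from separate starts, and the table used lists 1 start.

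Further into Gabbr1, the run at 37065709 to 37065925 was almost fully methylated. It read 99.2%, 95.9%, 93.1% and 100% in cocaine mice and 99.2%, 98.1%, 93.1% and 86.4% in saline mice, and the groups overlap. The mean was 97.0% ± 3.201 in cocaine and 94.2% ± 5.83 in saline mice, a difference of 2.84 points (quasi-binomial test, adjusted p = 0.916). The 46 interior cytosines, over 1 kb from both gene ends, combine these parts at 10.9% ± 2.14 in cocaine against 12.3% ± 2.01 in saline mice (adjusted p = 0.899). Weighting each cytosine equally turned that difference of -1.41 points to 0.383 points, and it was -0.456 points without cocaine 1, -0.593 points without saline 2, -2.18 points without cocaine 4 and -2.12 points without saline 3.

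Gabbr2 spans 46662318 to 46991714 on chromosome 4 and is read on the minus strand, so its start is the higher coordinate. Its 47 cytosines within 1 kb of the start read 0.530%, 0.382%, 0.141% and 0.743% in cocaine mice and 0.0996%, 1.13%, 0.462% and 1.201% in saline mice. All 8 values are under 2% and the groups overlap. In the 20 CpGs of the run over the start, 46991615 to 46991735, levels were at most 0.163% in cocaine and 0.887% in saline mice. The run of 3 CpGs at 46992326 to 46992351, before the start, was 19.4% in cocaine 4, at most 0.901% in the other cocaine mice and 1.23% to 6.67% in saline mice.

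Tested runs in the body of Gabbr2 ranged from 6.12% to 94.4% pooled, and most were intermediate. Of its 49 tested runs, 27 lay from 20% to 80%, 16 above 80% and 6 below 20%. Over 371 interior cytosines the level was 44.3%, 52.4%, 46.8% and 54.4% in cocaine mice and 49.1%, 56.5%, 52.8% and 51.8% in saline mice. Cocaine 1 and cocaine 3 were the lowest, and cocaine 2 and cocaine 4 lay among the saline mice. The mean was 49.5% ± 4.74 in cocaine and 52.6% ± 3.04 in saline mice, a difference of -3.08 points that is within the spread between mice (adjusted p = 0.836). It was -1.34 points without cocaine 1, -1.77 points without saline 2, -4.73 points without cocaine 4 and -1.18 points with each cytosine weighted equally.

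**Figure D1:**
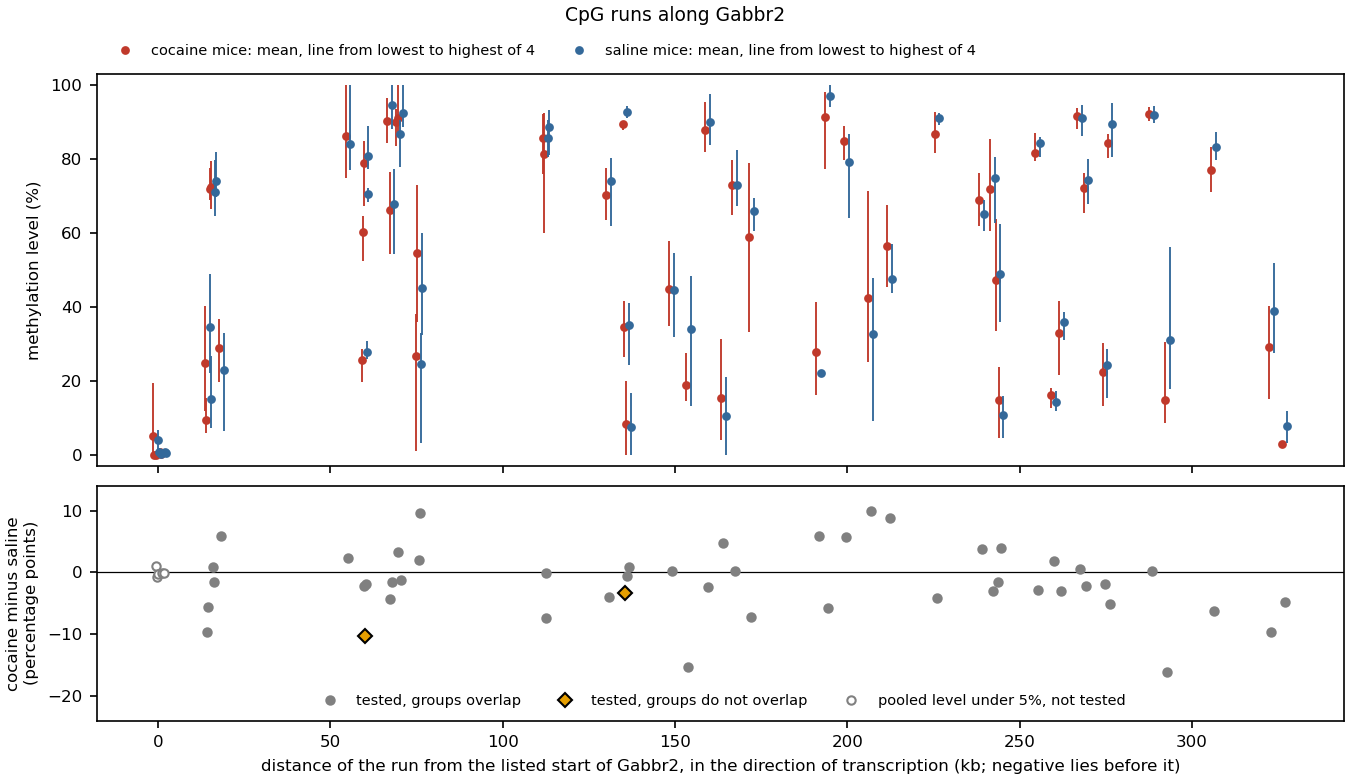
CpG runs along Gabbr2 by distance from its listed start (kb). The upper panel gives the level (%) of each run as the mean and the lowest to highest of 4 cocaine (red, drawn slightly left) and 4 saline mice (blue), and the lower panel the cocaine minus saline difference in points. Runs at the start sit near 0%, runs in the body range from 6.12% to 94.4% pooled, and 2 runs (orange) had groups that do not overlap.

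The call rule for a run was an adjusted p under 0.05 plus a gap of 10 points or more between group means; 0 member runs met it, as did 0 of the 92484 runs tested over the genome (0%). The smallest adjusted p of a member run was 0.876. By the same test, 1 of the 54 member runs, 1.85%, reached an unadjusted p under 0.05, against 5229 runs or 5.65% over the genome (4.57% lower and 1.08% higher in cocaine). It was lower in cocaine mice. Leaving out single mice gave 2 such runs without cocaine 1, cocaine 2 or cocaine 4, 3 without saline 1, 4 without saline 3 and 0 without saline 4. The call count was also 0 by limma on logit values. Cocaine was the lower group in 32 of the 54 runs, 59.3%, against 61.8% of all tested runs. The median difference was -1.56 points over member runs and -1.06 points over all tested runs. The groups did not overlap in 2 of the 54 runs, both lower in cocaine, against 3.29% of all tested runs (2.59% lower, 0.701% higher). That count was 4 without cocaine 1 or cocaine 4. The lower-mean share and the share without overlap are near those of the genome, and the share at an unadjusted p under 0.05 is below it and rests on 1 run.

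The member run with the smallest p lies near the far end of Gabbr2, at 46664764 to 46664939, and is a low patch of 11 CpGs. It read 2.90%, 3.50%, 3.72% and 1.83% in cocaine mice and 10.6%, 3.10%, 5.43% and 11.9% in saline mice. Saline 1 and saline 4 are high, and saline 2 lies among the cocaine mice. The mean was 2.99% ± 0.847 in cocaine and 7.77% ± 4.19 in saline mice, a difference of -4.79 points (adjusted p = 0.876). The mean was lower in cocaine mice at 10 of its 11 cytosines, which share reads within each strand. Without saline 4 the pooled level of the run was under 5% and it was not tested. Without saline 1 the difference was -3.83 points.

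Of the 2 runs of Gabbr2 whose groups do not overlap, the run at 46856093 to 46856362, of 8 CpGs, read 89.95%, 90.13%, 88.0% and 89.97% in cocaine mice and 94.0%, 94.3%, 91.1% and 92.3% in saline mice. All cocaine mice lie below all saline mice, with means of 89.5% ± 0.999 in cocaine and 92.9% ± 1.51 in saline mice (difference -3.38 points, adjusted p = 0.895). At no single cytosine of this run did the groups separate.

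The other run, at 46931543 to 46931629, read 52.6%, 64.8%, 61.2% and 62.7% in cocaine mice and 70.1%, 72.2%, 72.0% and 68.4% in saline mice. Its means were 60.3% ± 5.36 in cocaine and 70.6% ± 1.78 in saline mice, a difference of -10.3 points (adjusted p = 0.877). The difference sits in 1 of its 3 cytosines, at base 46931629 on the plus strand, with 61 to 123 reads per mouse. There the level was 62.3%, 54.8%, 56.5% and 51.4% in cocaine mice and 78.0%, 66.3%, 72.8% and 72.1% in saline mice. The 2 cytosines on the minus strand, with 16 to 43 reads, had means 6.18 and 0.535 points higher in cocaine mice and overlapping groups. With each cytosine weighted equally the run's difference was -3.12 points and its groups overlapped.

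The member runs with the largest difference in each direction also had wide spreads between mice. The member run with the most negative difference, 46698790 to 46698930 in Gabbr2, read 30.6%, 8.54%, 9.66% and 10.8% in cocaine mice and 18.5%, 56.3%, 17.8% and 31.3% in saline mice (difference -16.1 points, adjusted p = 0.876). Saline 2 is the highest there, and the groups overlap. The most positive, 9.87 points, was at 46784932 to 46784964, where levels were 41.3%, 32.4%, 25% and 71.3% in cocaine mice and 9.30%, 33.7%, 47.7% and 39.8% in saline mice (adjusted p = 0.982). This run also had the widest range over the 8 mice, 62.0 points. The range over mice had a median of 18.7 points in member runs and 15.2 points in all tested runs. The 2 sets are not alike in level or depth. Levels from 20% to 80% were found in 30 of 54 member runs and 36052 of 92484 tested runs. Median reads per cytosine were 44.7 in member runs and 49.8 in all tested runs. Whether the ranges differ at like level and depth was not tested.

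**Figure D2:**
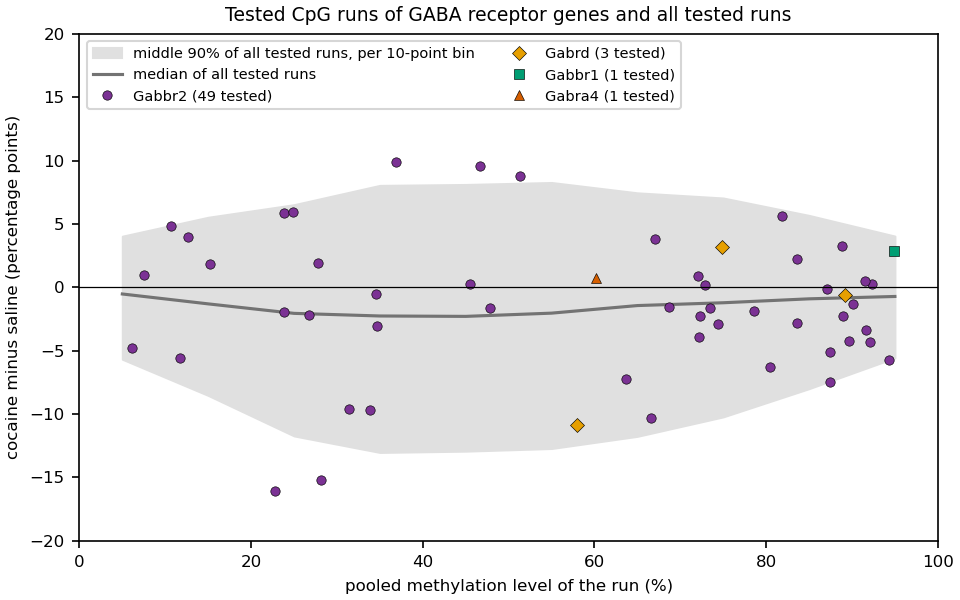
Cocaine minus saline difference (percentage points) of each tested member run against its pooled level (%), over the middle 90% (grey) and median (line) of all tested runs in 10-point bins of level. Of the 54 member runs, 48 lie inside that band, 3 below and 3 above it.

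Gabrd lies on chromosome 4 from 155384979 to 155398098, and its covered gene end was methylated. Whether this end holds the start was not determined here, so it is not set against the starts of the other members. The end at the lower coordinate, with 16 cytosines, read 86.4%, 89.4%, 89.8% and 89.3% in cocaine mice and 87.6%, 90.4%, 91.0% and 88.5% in saline mice. The groups overlap, with means of 88.7% ± 1.55 in cocaine and 89.4% ± 1.57 in saline mice (difference -0.615 points, adjusted p = 0.988). None of the 7336 gene ends tested over the genome met the same adjusted p with 5 points or more (0%), with 424 or 5.78% at an unadjusted p under 0.05, 3.6% with groups that do not overlap, and 0 called by limma on logit values. The higher-coordinate end of Gabrd had no cytosine with 10 reads in all 8 libraries.

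Inside Gabrd, 13 cytosines read 65.1%, 67.5%, 69.2% and 64.9% in cocaine mice and 70.6%, 65.9%, 70.4% and 67.0% in saline mice. Means were 66.7% ± 2.05 in cocaine and 68.5% ± 2.37 in saline mice (difference -1.80 points, adjusted p = 0.884). The run at 155387475 to 155387635 was higher in cocaine mice by 3.14 points, at 77.1% ± 2.67 in cocaine against 74.0% ± 1.85 in saline mice (adjusted p = 0.951). The run at 155395061 to 155395157, which also lies within the gene Cfap74, read 26.9%, 64.7%, 50% and 53.1% in cocaine mice and 64.6%, 56.6%, 64.7% and 52.3% in saline mice. Its difference of -10.9 points (adjusted p = 0.929) was -3.62 points without cocaine 1.

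This last run held the sharpest step among the members' tested runs. Its cytosine at base 155395061 was at most 3.08% in cocaine and 8.33% in saline mice. The next cytosine, at base 155395105, read 15.4%, 96%, 73.1% and 85.7% in cocaine mice and 98.5%, 83.0%, 98.2% and 93.8% in saline mice, so the step was large in 7 mice, while cocaine 1 had 0 and 2 methylated of 13 reads, too few to show one. Within the 54 tested runs the pooled levels of single cytosines differed by a median of 20.7 points, by over 50 points in 6 runs and by under 10 points in 15. In Gabra4, likewise, the first cytosine of the run at 71622829 to 71622877 was methylated at 91.2% to 98.1% over cocaine mice and 84.3% to 95.9% over saline mice. The neighbour at 71622871 was lower, between 34.5% and 48.2% over cocaine mice and between 32.4% and 50.3% over saline mice.

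**Figure D3:**
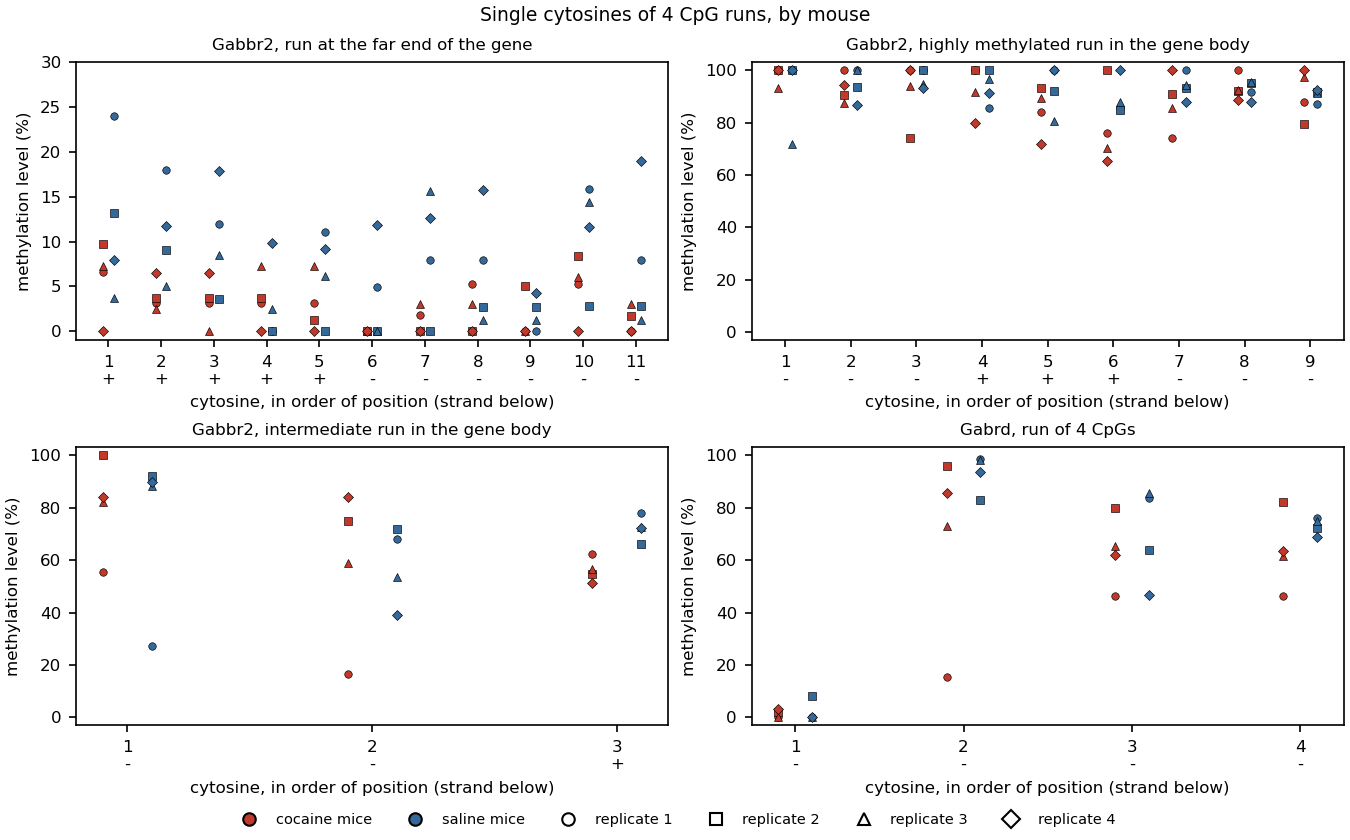
Methylation level (%) of each cytosine in order of position (strand below) in the 3 Gabbr2 runs given above and the third run of Gabrd, 1 point per mouse, cocaine red and left of saline blue. In the third panel only the last cytosine separates the groups; in the fourth the first cytosine stays near 0% in all mice. The first panel's axis ends at 30%.

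The start window of Gabra4, on chromosome 5 (gene 71569734 to 71658308), overlaps the start of Gabrb1, another GABA-A subunit gene, so its values are not those of Gabra4 alone. Its 35 cytosines read 0.801%, 0.366%, 0.501% and 0.319% in cocaine mice and 3.22%, 0.690%, 1.11% and 0.471% in saline mice. Saline 1 is the highest and the groups overlap. The 8 interior cytosines of Gabra4 read 74.0%, 63.7%, 52.3% and 67.7% in cocaine mice and 54.9%, 67.1%, 59.8% and 68.3% in saline mice. Their means were 64.4% ± 9.09 in cocaine and 62.5% ± 6.32 in saline mice (difference 1.91 points, adjusted p = 0.898), and the sign turned without cocaine 1 (-1.27 points) or saline 1 (-0.633 points). The run of 3 CpGs in that interior averaged 60.2% ± 6.65 in cocaine against 59.5% ± 6.55 in saline mice (adjusted p = 0.979).

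Gabra5, on chromosome 7 (57407669 to 57591016), has its listed RefSeq start inside this span, at base 57510059, and 2 dense runs follow it. The run at 57509165 to 57509597 holds 50 CpGs and had levels up to 0.347% over cocaine mice and from 0.176% to 2.05% over saline mice. The run at 57509755 to 57509981 holds 31 CpGs and had levels from 1.74% to 4.61% over cocaine mice and from 1.53% to 7.29% over saline mice.

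Single cytosines stood out in these Gabra5 runs. At base 57509854, plus strand, every mouse read 100% except saline 3, at 89.7%, on 31 to 62 reads, within a run whose pooled level is 3.27%. At base 57509428, minus strand, saline 1 had 29 methylated of 62 reads, 46.8%, and the other 7 mice had 0 of 25 to 67 reads. The same CpG read on the plus strand had a pooled level of 0%. Both cytosines were singled out after their values were seen, and the part of saline 1's unusual reads in this was not tested. Over the 140 interior cytosines Gabra5 read 1.74% ± 0.459 in cocaine and 2.77% ± 1.48 in saline mice, the lowest of the 7 interiors. Of these, 137 lie within 1 kb of the listed start, and the other 3 had pooled levels of 95.6%, 73.3% and 92.9%, so this value describes the start and not the gene body.

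Gabra2, on chromosome 5 (70958392 to 71095849), had 25 cytosines at its start, at 0.0432%, 1.35%, 0.221% and 0.0583% in cocaine mice and 0%, 0.366%, 0% and 0.198% in saline mice. Its only other cytosines were 2 in the interior, too few for the test, at 90.9%, 97.3%, 96.4% and 100% in cocaine mice and 90.4%, 89.3%, 88.3% and 92% in saline mice. Their means were 96.2% ± 3.82 in cocaine and 89.98% ± 1.58 in saline mice, on 83 to 154 reads per mouse, and cocaine 1 lies among the saline mice.

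Gabrb2, on chromosome 11 (42419515 to 42632591), had 13 cytosines. Its run of 9 CpGs beside a listed start, 42421209 to 42421363, had at most 0.913% over cocaine mice and 1.27% over saline mice, and overlaps the long noncoding RNA gene Gm34591. With 2 more cytosines its interior read 4.26%, 3.80%, 4.32% and 3.78% in cocaine mice and 2.38%, 5.79%, 7.56% and 10.9% in saline mice. Means were 4.04% ± 0.288 in cocaine and 6.65% ± 3.54 in saline mice (difference -2.61 points, adjusted p = 0.814), and equal weights per cytosine turned this to 1.34 points. It was -1.21 points without saline 4 and -4.03 points without saline 1. A minimum of 20 reads drops both cytosines outside the run, which had 16 reads each in cocaine 1. What is left lies at the start, differed by 0.0599 points and was too low for the test.

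**Figure D4:**
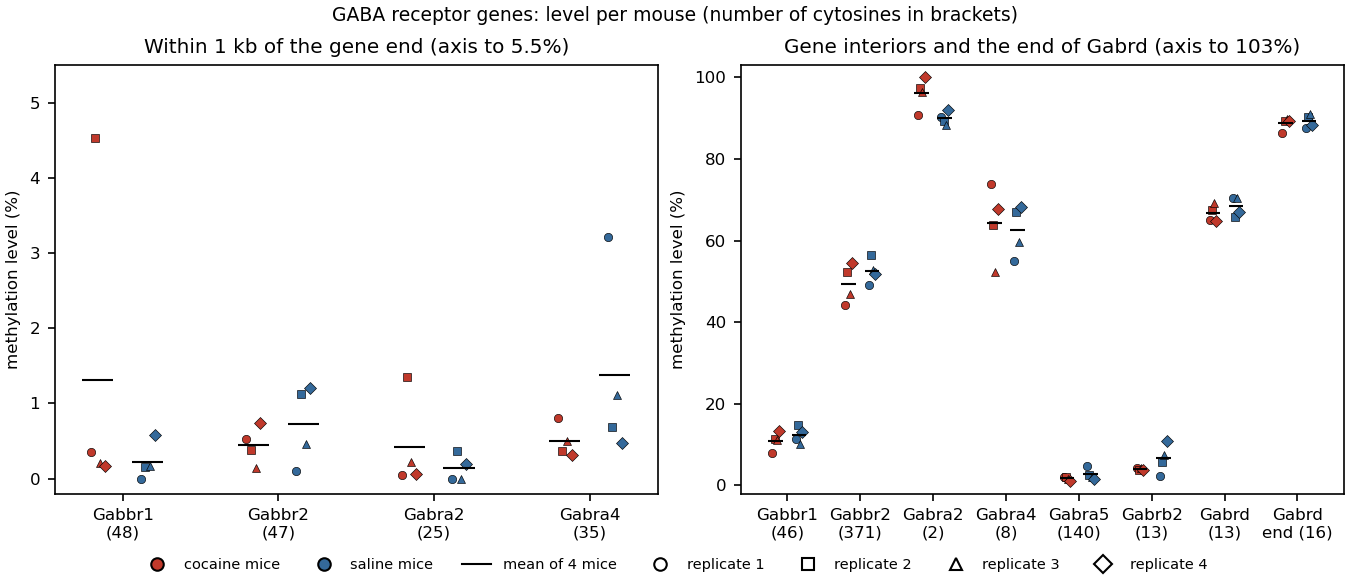
Methylation level (%) of gene parts by mouse, cocaine (red) left of saline (blue), with the mean of 4 mice as a line and the number of cytosines in brackets. Left, windows within 1 kb of a gene end, all under 5%; right, interiors and the methylated end of Gabrd. The groups overlap in every part.

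Interior levels ordered the members as Gabra2, Gabrd, Gabra4, Gabbr2, Gabbr1, Gabrb2 and Gabra5, highest first. The ranges over mice overlap between Gabrd and Gabra4, Gabra4 and Gabbr2, Gabbr1 and Gabrb2, and Gabrb2 and Gabra5. Levels of different genes in the same mouse are paired, so overlap of ranges alone does not settle their order. Within single mice, Gabra4 was above Gabbr2 and Gabbr1 above Gabrb2 in 8 of 8, Gabrb2 above Gabra5 in 7 of 8, and Gabrd above Gabra4 in 4 of 8. These interiors rest on 2 to 371 cytosines at unlike distances from CpG-dense starts. Cocaine had the lower mean in 5 of the 6 tested ends and interiors, where 64.2% of all tested ends and 71.2% of all tested interiors were lower. None of the 14641 tested interiors was called (0%), with 995 or 6.8% at an unadjusted p under 0.05, 4.38% with groups that do not overlap, and 0 called by limma on logit values.

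Deviations of an interior from its own mean over the 8 libraries were compared with those of 7538 other gene interiors. The nearest gene was Cacna1d for Gabbr2 (root mean square difference 0.776 points), Nsmce2 for Gabbr1 (0.622 points), Pitpnb for Gabrd (0.960 points), Il1r2 for Gabrb2 (0.911 points) and Gm32547 for Gabra4 (2.56 points). With 8 libraries and this many genes, a close match is a description only.

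Other genes of GABA signalling gave no call either. Of 14 other GABA-A subunit genes, 9 had a tested run. Of their 28 tested runs, 0 reached an unadjusted p under 0.05 in the quasi-binomial test (5.65% over all tested runs). The median difference was -0.424 points. The smallest p in each direction belonged to runs of Gabrg3, a gamma subunit gene. One, on chromosome 7 from 57251779 to 57251876, averaged 88.8% ± 5.30 over cocaine mice and 93.6% ± 2.83 over saline mice (adjusted p = 0.890), a difference of -4.76 points that was -2.23 points without cocaine 3. The other, from 57139450 to 57139481, averaged 95.9% ± 3.45 over cocaine mice and 91.6% ± 4.85 over saline mice (adjusted p = 0.884).

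Among 12 genes of GABA synthesis, storage, uptake and breakdown, 10 had a tested run. Of 59 such runs, 4 or 6.78% reached an unadjusted p under 0.05 in the quasi-binomial test (5.65% over all tested runs). Of these, 3 were lower and 1 higher in cocaine mice. The median difference over the 59 runs was -2.05 points. In Aldh5a1, which encodes a GABA breakdown enzyme, the run on chromosome 13 from 24905589 to 24905766 averaged 66.7% ± 14.98 over cocaine mice and 82.5% ± 4.53 over saline mice (adjusted p = 0.876), and the difference of -15.8 points was -9.11 points without cocaine 1. In Slc6a11, a GABA transporter gene of astrocytes, chromosome 6, 114226123 to 114226199, read 91.0%, 79.6%, 84.8% and 83.3% in cocaine mice and 50%, 76.9%, 66.7% and 77.0% in saline mice. All cocaine mice lie above all saline mice in this run of 3 CpGs (84.7% ± 4.74 against 67.6% ± 12.7, adjusted p = 0.876). The difference of 17.1 points was 11.2 points without saline 1.

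Among 18 genes of receptor anchoring and trafficking, 16 had a tested run. Of 71 such runs, 5 or 7.04% reached an unadjusted p under 0.05 in the quasi-binomial test (5.65% over all tested runs). Of these, 3 were lower and 2 higher in cocaine mice. The median difference over the 71 runs was -0.257 points. In Trak1, a mitochondrial and receptor transport adaptor gene, chromosome 9, 121302138 to 121302383, read 78.5%, 78.9%, 71.2% and 78.9% in cocaine mice and 91.1%, 83.0%, 84.6% and 94.3% in saline mice, without overlap (adjusted p = 0.876). In Lhfpl4, which encodes a partner of synaptic GABA-A receptors, the run on chromosome 6 from 113176490 to 113176623 averaged 71.5% ± 5.77 over cocaine mice and 63.8% ± 4.66 over saline mice (adjusted p = 0.876). For the AMPA and NMDA receptor subunit genes, the nearest group by function, 9 of 70 tested runs or 12.9% had an unadjusted p under 0.05, 8 of them lower in cocaine mice. The share was 5.65% over all tested runs (4.57% lower) and 1.85% in the GABA receptor runs, and the difference between these shares was not tested. In Grin2c, an NMDA receptor subunit gene, the run on chromosome 11 from 115268581 to 115268663 averaged 76.6% ± 3.603 over cocaine mice and 88.5% ± 1.95 over saline mice, without overlap (adjusted p = 0.876). In Grin3a, another such gene, the run on chromosome 4 from 49711392 to 49711497 averaged 93.97% ± 0.789 over cocaine mice and 85.4% ± 3.47 over saline mice, also without overlap (adjusted p = 0.876).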

How the data were processed

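Sample titles gave each mouse's group and number. The submitters' processing notes name bcl2fastq, Bismark (version 22.1) and mm10; no source used here describes trimming or removal of duplicates. The authors deposited, per cytosine and strand, a methylation fraction from 0 to 1 (named a percent in the file headers) and a coverage count of at least 10 reads. Their product was whole at 100% of cytosines in each library and was rounded to methylated reads. Cytosines with at least 10 reads in all 8 libraries were kept, without the mitochondrion and unplaced contigs. Intervals and limits cover counting error only, since no molecular identifiers are described.

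Runs (gaps of at most 100 bp, at least 3 CpGs), gene ends (1 kb either side) and interiors (at least 5 cytosines each), with a pooled level of 5% to 95%, were tested over the whole genome by quasi-binomial regression of reads on group. The dispersion was moderated with limma 3.58.1 in R 4.3.3, and p values were adjusted by Benjamini-Hochberg over all features of that kind. Runs were called at a difference of 10 points, ends and interiors at 5. The test was checked on simulated reads. No pair of libraries repeated the same reads (lowest chi-square per run 5.64). Sample titles number the mice within each group and do not state that same-numbered mice were paired. Named runs were each member's smallest p and any with groups that do not overlap, and in other lists the smallest p in each direction. Runs with the largest change were named after their values were seen. The members and lists were chosen with earlier results of these data known. The higher-coordinate end of Gabra5 is not reported here.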

Additional observations from a re-analysis of the deposited data

Results flagged for a closer look

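In 48 groups of 4 mice, 7 had a mouse whose gap to its neighbour was large against the range of its group. Chance gives about 1 in 20 for normally distributed values. Some of these groups lie near 0% or come from runs picked for a small p, so that rate need not hold here. At the starts, cocaine 2 was high at Gabbr1 (4.53%, against 0.161% to 0.356% in the other cocaine mice) and at Gabra2 (1.35%, against 0.0432% to 0.221%). At the end of Gabrd cocaine 1 was low (86.4%, against 89.3% to 89.8%). In the Gabbr2 run at 46856093 cocaine 3 was low (88.0%, against 89.95% to 90.13%). In other lists, cocaine 3 was low in the Trak1 run (71.2%, against 78.5% to 78.9%), cocaine 4 in the Lhfpl4 run (62.9%, against 73.6% to 75.0%), and saline 4 was high in the Aldh5a1 run (89.3%, against 79.9% to 81.0%).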

How the results depend on the processing

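No gene end or interior was called under any alternative tried, and runs over the genome gave 0 calls except for 1 with the replicate block. Member runs at an unadjusted p under 0.05, 1 in the text, numbered 2 with no filter on level and with gaps of at most 50 bp or 200 bp, 3 with each run's own dispersion and without saline 1 and cocaine 3, 5 with the replicate block, and 0 to 4 when single mice were left out. Member runs without overlap between groups, 2 in the text, numbered 1 with at least 20 reads, 0 with each cytosine weighted equally or gaps of at most 50 bp, 5 without saline 1 and cocaine 3, and 2 to 4 without single mice; fewer mice overlap less by construction. Lower ends and interiors in cocaine mice, 5 of 6, numbered 3 with equal weights and 9 with no filter on level, which tests more parts. With at least 20 reads fewer parts were tested, and the 3 tested were all lower in cocaine mice. Runs of the other GABA lists at an unadjusted p under 0.05, 9 in the text, numbered 19 with no filter on level and 6 to 15 without single mice, the 15 without saline 4.

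Signs turned, among others, at the interiors of Gabrb2 (1.34 points) and Gabbr1 (0.383 points) with equal weights. They also turned at the Gabrd end without cocaine 1 (0.154 points) and the Gabra2 start without cocaine 2 (-0.0336 points). The Gabra4 run turned without cocaine 1 (-1.43 points), cocaine 4 (-0.793 points) or saline 1 (-2.18 points). The Gabra4 interior turned without cocaine 1 (-1.27 points) or saline 1 (-0.633 points). Over all mice left out in turn, differences ranged from -1.19 to 0.154 points at the Gabrd end. They ranged from -2.18 to 3.29 points in the Gabra4 run and from -1.27 to 5.94 points in the Gabra4 interior. The cause was not tested. Same-numbered mice did not deviate together (correlations of -0.00753 to 0.0293 over tested runs), which cannot show that no pairing existed. The titles state no pairing, so the replicate block has no basis in the labels. Members with few covered CpGs, Gabra2 and Gabrb2 above all, allow no statement beyond their starts.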
